A study of Mus musculus with 6 samples.

Results

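Sensory neurons of the dorsal root ganglion take on their identity through a small set of DNA-binding transcription factors, and the genes for 10 of these were followed here by symbol: Isl1, Pou4f1, Pou4f2, Runx1, Runx3, Shox2, Prdm12, Prrxl1, Tlx3 and Etv1. All 10 had a row in the files, out of 48401 gene rows, and all 10 passed the filter of a mean of at least 1 TPM (a transcript level scaled to gene length and library total), out of 19141 genes that did. RNA was sequenced in bulk from L4/5 dorsal root ganglia, the clusters of sensory cell bodies beside the lower spinal cord, of male C57BL/6J mice at 8 weeks of age. One set of mice had received siCLAP, a small interfering RNA named for CLAP, by intrathecal injection, that is, into the spinal fluid space, and the other had received siNC in the same way, taken here as the control siRNA. Each group held 3 libraries. The labels name no allele or transgene, and they do not state how many mice gave a library or that each library had its own mice. All p-values below therefore speak of variation among 6 libraries, which may be technical. CLAP was not analysed here, and the knockdown was not checked.

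Isl1 and Pou4f1 are homeodomain factors found in nearly all sensory neurons from the time they leave the cell cycle, and Pou4f2 is a close relative of Pou4f1 best known from retinal ganglion cells. Prdm12, Tlx3 and Prrxl1 act in the lineage of pain- and itch-sensing neurons, where Runx1, a runt-domain factor, later sets up the non-peptidergic nociceptors. On the side of large myelinated neurons, Runx3 and the ETS factor Etv1 belong to proprioceptors, which report muscle stretch, and Shox2 to touch neurons that carry the neurotrophin receptor TrkB. Most of these genes stay on in the adult ganglion.

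The bases just before the start of a gene hold its core promoter. Windows of 250 bases before the annotated starts (RefSeq, GRCm38.p6, the assembly that mm10 names) were available for all 10 genes, with 13 starts in all. They are shown for the 3 genes whose siCLAP and siNC libraries did not overlap, Shox2, Tlx3 and Isl1, and for the upstream start of Runx3, which held runt-type letters. Capitals mark TGTGGT, the letters bound by runt-domain factors, on either strand.
Shox2, chr3:66981772-66982021, minus strand: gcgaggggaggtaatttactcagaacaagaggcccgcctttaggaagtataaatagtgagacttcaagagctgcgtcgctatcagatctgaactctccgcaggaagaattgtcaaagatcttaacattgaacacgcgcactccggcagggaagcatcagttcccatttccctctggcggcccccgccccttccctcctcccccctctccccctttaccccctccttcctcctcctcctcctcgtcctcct
Tlx3, chr11:33203589-33203838, minus strand: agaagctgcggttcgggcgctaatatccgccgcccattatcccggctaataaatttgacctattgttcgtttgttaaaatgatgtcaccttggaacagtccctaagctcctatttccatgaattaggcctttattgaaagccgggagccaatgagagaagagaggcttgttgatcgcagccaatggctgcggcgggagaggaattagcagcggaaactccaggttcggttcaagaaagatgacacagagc
Isl1, chr13:116309689-116309938, minus strand: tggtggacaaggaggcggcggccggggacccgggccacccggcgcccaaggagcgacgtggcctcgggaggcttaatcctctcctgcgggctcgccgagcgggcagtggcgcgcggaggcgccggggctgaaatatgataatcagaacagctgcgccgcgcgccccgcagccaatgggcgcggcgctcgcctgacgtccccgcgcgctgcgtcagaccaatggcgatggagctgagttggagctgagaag
Runx3, chr4:135120395-135120644, plus strand: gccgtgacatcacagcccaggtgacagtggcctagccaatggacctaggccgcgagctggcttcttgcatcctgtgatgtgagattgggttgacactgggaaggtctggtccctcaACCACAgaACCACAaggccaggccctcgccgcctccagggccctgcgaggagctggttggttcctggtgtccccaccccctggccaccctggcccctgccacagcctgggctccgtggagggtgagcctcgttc

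The upstream Runx3 window held the runt letters at 2 places, and 1 window each of Prrxl1 and Etv1 held them. That made 3 of the 10 genes, and 3 of their 13 windows. Of 32851 windows of the same length, counted with those on chr18 left out, 14.0% held TGTGGT. The homeodomain letters TAATTA were in 0 of the 10 genes' windows and in 4.84% of the 32851 windows. The ETS letters CCGGAA were in 1 of the 13, at the inner start of Runx1, and in 12.0% of the 32851 windows. A match of letters is a description of these windows and not a bound site.

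The genes lie as follows on mm10 (GENCODE M21 coordinates). Shox2 is at chr3:66971727-66981771, Tlx3 at chr11:33200752-33203589, Isl1 at chr13:116298281-116309689 and Runx1 at chr16:92601466-92826149, all on the minus strand. Pou4f1 (chr14:104461676-104467999) and Pou4f2 (chr8:78433010-78436645) are also on the minus strand. The plus strand holds Runx3 (chr4:135120652-135177990), Prdm12 (chr2:31640037-31655795), Prrxl1 (chr14:32599407-32649246) and Etv1 (chr12:38779380-38870484).

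The factors spanned a wide range of levels. Prdm12, a zinc-finger factor without which nociceptors do not form, stood highest, at 253, 248 and 277 TPM in the siCLAP libraries and 272, 298 and 266 TPM in the siNC libraries. By mean TPM it was number 546 among the 19141 tested genes. Tlx3 followed with a mean of 145 ± 9.91 TPM (SD over all 6 libraries), then Pou4f1 with 130.0 ± 5.50, Isl1 with 127 ± 8.14 and Prrxl1 with 111 ± 6.96 TPM. The middle of this order was close. Ranges of the neighbours Tlx3 and Pou4f1, Pou4f1 and Isl1, and Isl1 and Prrxl1 overlapped, although Tlx3 exceeded Pou4f1 and Isl1 exceeded Prrxl1 in 6 of 6 libraries, and Pou4f1 exceeded Isl1 in 4 of 6.

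Lower in the order, no range overlapped that of its neighbour. Etv1 averaged 81.0 ± 7.81 TPM, Runx1 36.2 ± 1.73, Shox2 26.6 ± 5.00, Pou4f2 17.7 ± 1.36 and Runx3 8.41 ± 1.37 TPM. Runx3 was number 11809 among the 19141 tested genes. In bulk tissue a factor limited to few cells and one with little RNA per cell cannot be told apart. The counts behind these values ran from 229 to 622 reads per library for Runx3 and from 5350 to 13062 for Prdm12.

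**Figure D1:**
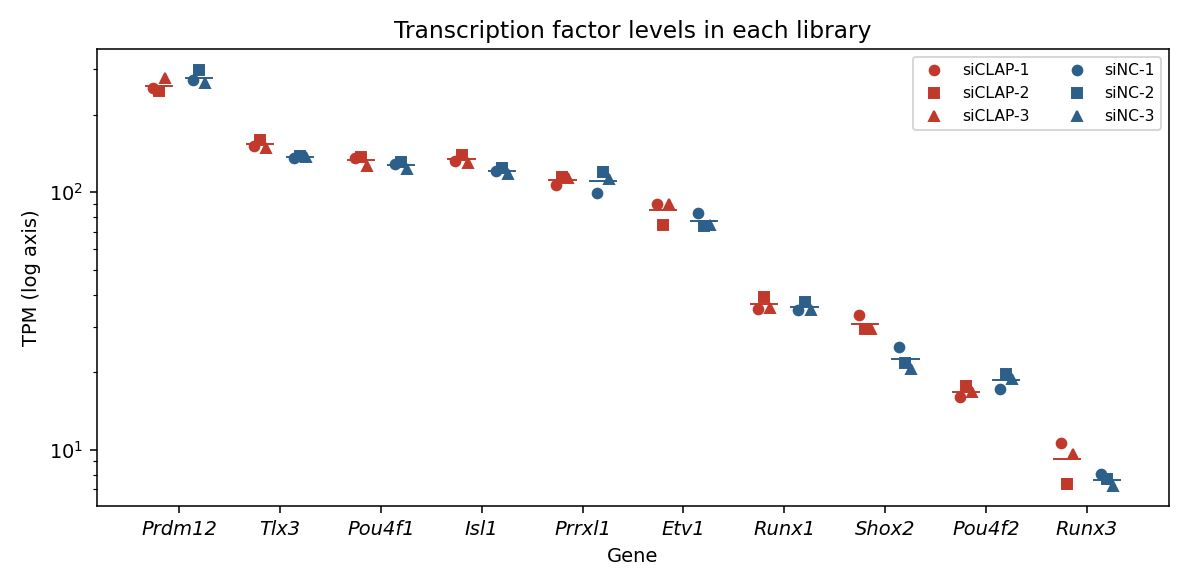
TPM (log axis) of each of the 10 factors in the 3 siCLAP libraries (red) and the 3 siNC libraries (blue), with symbols for replicate numbers and lines for group means. Prdm12 lies at 248 to 298 TPM and Runx3 at 7.24 to 10.6 TPM, and of all 10 genes only Shox2, Tlx3 and Isl1 have every siCLAP library above every siNC library.

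Set against siNC, the siCLAP libraries show which identity factors differ after the injection of siRNA named for CLAP. Shox2 rose in siCLAP ganglia, and the other 9 factors did not pass edgeR's quasi-likelihood test at an adjusted p under 0.05. Shox2, a paired-related homeodomain factor, had 40.0, 35.0 and 35.2 normalised CPM (read counts scaled to library size) in the siCLAP libraries, against 29.2, 26.0 and 24.2 normalised CPM in the siNC libraries. Every siCLAP library lay above every siNC library, siCLAP-1 standing highest and siNC-1 nearest to it among the controls. Means were 36.8 ± 2.83 in siCLAP and 26.5 ± 2.52 in siNC (SD, n = 3 each), a 1.39-fold difference (log2 fold change 0.47 ± 0.08 SE, adjusted p = 0.0409 in edgeR's test over all genes). Of the 10 factors 1 was called higher, against 0.0731% of all tested genes called higher and 0.293% called in either direction. With 3 libraries a side an exact permutation test of 1 gene cannot give a p below 0.1, so no such test is given.

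The Shox2 estimate kept its sign in 20 of 20 alternative settings, from 0.39 to 0.55 on the log2 scale, but its call did not hold in all of them. It passed in 12, among them DESeq2 (adjusted p = 5.66e-05), limma voom (0.0438) and scaling to pan-neuronal genes (0.0243). The call ended with limma on log2(TPM + 0.5) (adjusted p = 0.166), and without siCLAP-1 (0.247), siNC-3 (0.182), siNC-2 (0.055), siCLAP-2 (0.0521) or both siNC-3 and siCLAP-2 (0.151). Shox2 shares 153 bases of exon with Rsrc1, a splicing-factor gene on the opposite strand, and the library kit does not mark strand. Rsrc1 itself stood at 53.8 ± 3.47 normalised CPM in siCLAP and 50.9 ± 2.71 in siNC, with overlapping groups (log2 fold change 0.08 ± 0.06 SE). Its part in the Shox2 value was not tested.

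**Figure D2:**
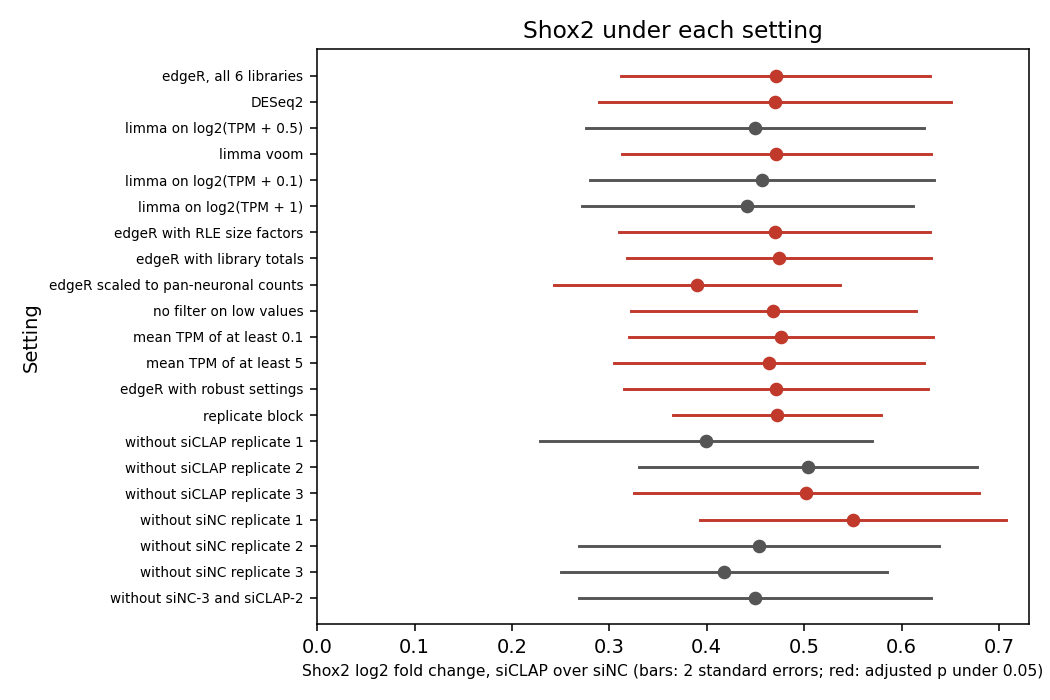
Log2 fold change of Shox2, siCLAP over siNC, in edgeR's test with all 6 libraries (top) and under 20 alternative settings, with bars of 2 standard errors and red where the adjusted p was under 0.05. All estimates lie between 0.39 and 0.55, and 12 of the 20 alternatives keep the call.

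By the shape of its values over the 6 libraries, the genes most like Shox2 among 13805 candidates with a mean of at least 5 TPM were Gabrg1, BC096455 and Phyhip. Pearson r on log2 normalised CPM was 0.9979, 0.9932 and 0.993. With so many candidates and 6 libraries that share their 2 groups, such values are a description of likeness only. Gabrg1, a GABA-A receptor subunit, had 42.4, 34.7 and 36.3 normalised CPM in siCLAP and 28.9, 24.8 and 22.3 in siNC, and it also rose (log2 fold change 0.57 ± 0.10 SE, adjusted p = 0.044). Gabrg1 was called in 13 of 20 alternatives, the call ending with limma on log2(TPM + 0.5) (adjusted p = 0.175; 0.173 and 0.176 with the other pseudocounts), and without siCLAP-1 (0.235), siNC-2 (0.0573), siNC-3 (0.182) or both siNC-3 and siCLAP-2 (0.1). BC096455 and Phyhip stood at 0.17 ± 0.05 and 0.24 ± 0.09 SE (log2 fold change, adjusted p = 0.155 and 0.221) and did not pass.

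Isl1, Pou4f1 and Pou4f2, the factors of the broad sensory lineage, did not pass the test. Isl1 had 130, 135 and 126 normalised CPM in siCLAP libraries and 115, 121 and 113 in siNC libraries, so the groups did not overlap. The difference was 1.12-fold (log2 fold change 0.16 ± 0.05 SE, adjusted p = 0.134) and did not pass. Pou4f1, which acts together with Isl1 to close the early neurogenic program, had 198, 199.6 and 184 normalised CPM in siCLAP and 184, 191 and 176 in siNC, with overlapping groups (0.08 ± 0.05 SE, adjusted p = 0.448). An interval of 2 standard errors ran from 0.986-fold to 1.13-fold for Pou4f1 and from 1.05-fold to 1.20-fold for Isl1. Pou4f2 had 19.9, 21.7 and 20.6 normalised CPM in siCLAP and 20.8, 24.4 and 22.9 in siNC, again with overlap (−0.13 ± 0.07 SE, adjusted p = 0.391). Per length, Pou4f2 transcripts were 0.127 ± 0.00699 of those of Pou4f1 in siCLAP and 0.146 ± 0.0111 in siNC (ratio of TPM, SD, n = 3 each). The 2 genes are paralogs, and how the authors' counting assigned reads that match both is not given in the sources used here.

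Among the factors of the nociceptor and pruriceptor lineage, Tlx3 came closest to passing. This homeodomain factor had 89.6, 94.1 and 87.6 normalised CPM in siCLAP libraries and 78.2, 81.7 and 79.4 in siNC libraries. Its siNC libraries were tight, all below the lowest siCLAP library, and the difference was 1.13-fold (log2 fold change 0.18 ± 0.05 SE, adjusted p = 0.0984). DESeq2 called it (adjusted p = 0.0466), and it was 1 of 2 factors called there, with Shox2, against 3.19% of all tested genes. Scaled to pan-neuronal genes, the Tlx3 estimate was 0.10 ± 0.06 SE (adjusted p = 0.324).

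Prdm12 had 242, 235 and 264 normalised CPM in siCLAP libraries and 253, 284 and 250 in siNC libraries. The groups overlapped, since siCLAP-3 lay above siNC-1 and siNC-3 (log2 fold change −0.09 ± 0.06 SE, adjusted p = 0.481). The exons of Prdm12 share 200 bases with Gm13425, an antisense transcript on the other strand, so that without strand the reads there cannot be assigned to either gene. Gm13425 had 32.7, 34.8 and 37.9 normalised CPM in siCLAP and 41.5, 44.9 and 41.8 in siNC, with every siCLAP library below every siNC library, and did not pass (−0.29 ± 0.07 SE, adjusted p = 0.0801). Relative to Isl1, Prdm12 stood at 1.91, 1.78 and 2.14 in siCLAP and 2.26, 2.39 and 2.27 in siNC (ratio of TPM), with no overlap. Neither gene passed edgeR's test, and Isl1 by itself had groups without overlap. Of all tested genes, taken singly by normalised CPM, 21.5% had groups without overlap. A share for ratios between genes was not computed. The ratios of Shox2 to Isl1 and of Pou4f2 to Pou4f1 did not overlap either, while that of Runx3 to Runx1 did.

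Prrxl1, also called Drg11, a paired-type homeodomain factor of nociceptive afferents and of the dorsal horn they contact, had 98.0, 104 and 103 normalised CPM in siCLAP and 88.7, 109 and 101 in siNC. Its siNC-1 library was the lowest and siNC-2 the highest of all 6, so the siCLAP values lay inside the siNC range (0.03 ± 0.07 SE, adjusted p = 0.874). Runx1 had 96.8, 107 and 97.5 normalised CPM in siCLAP and 93.8, 103 and 94.5 in siNC, where the second library stood highest in both groups (0.05 ± 0.06 SE, adjusted p = 0.711). The interval of 2 standard errors for Runx1 ran from 0.955-fold to 1.12-fold. Runx1 shares 106 exon bases with the antisense gene Gm26626, which stood at −0.13 ± 0.15 SE.

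Genes that mouse knockouts of Runx1 are known to lose or lower, 11 in number and mostly receptors and channels of non-peptidergic and itch neurons, were read beside Runx1 itself. Of the 11, 3 fell, 0 rose and 8 did not pass, while 42 of all 19141 tested genes fell and 14 rose. All 11 estimates were negative, with a median log2 fold change of −0.24, against −0.002 for all tested genes. The sodium channel gene Scn11a fell, at 573, 577 and 627 normalised CPM in siCLAP and 755, 835 and 812 in siNC (log2 fold change −0.43 ± 0.05 SE, adjusted p = 0.0204). The receptor gene Mrgprd (−0.37 ± 0.06 SE, adjusted p = 0.0397) and the neurturin co-receptor gene Gfra2 (−0.28 ± 0.05 SE, adjusted p = 0.0425) fell as well. Ret, the signalling receptor shared by GDNF-family ligands, stood at −0.20 ± 0.04 SE (adjusted p = 0.0735). Whether the change of these genes differs from that of Runx1 was not tested. The list count was 0 with limma on log2(TPM + a pseudocount), for each of 3 pseudocounts, and without siCLAP-1, siNC-3 or both siNC-3 and siCLAP-2. It was 1 without siCLAP-2, 5 with the replicate number as a block, 6 with DESeq2 and 7 with scaling to pan-neuronal genes or no filter. The count over all genes also changed with the setting, being 0 with those limma fits or without siCLAP-1. It was 611 with DESeq2, 801 with scaling to pan-neuronal genes and 835 with no filter. The list shares genes already known to be lower in these libraries.

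Cbfb, the protein partner of both Runx1 and Runx3, was among the more abundant factors, with a mean of 210.0 TPM. It had 252, 249 and 256 normalised CPM in siCLAP libraries and 215, 224 and 208 in siNC libraries, with no overlap (log2 fold change 0.23 ± 0.04 SE). It did not pass (adjusted p = 0.056), and it passed in 8 of 20 alternatives, where the estimate ran from 0.145 to 0.255.

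**Figure D3:**
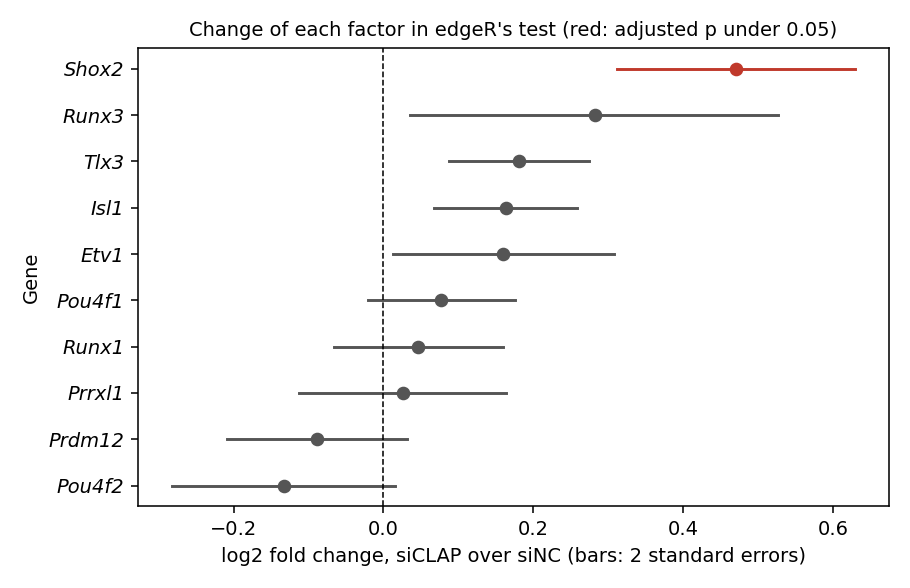
Log2 fold change of each factor, siCLAP over siNC, in edgeR's test, with bars of 2 standard errors and red for an adjusted p under 0.05. Shox2 at 0.47 is the 1 gene in red, 8 of the 10 estimates are positive, and Pou4f2 and Prdm12 lie below 0.

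Runx3 and Etv1, the proprioceptor factors, did not pass and had the widest spread among siCLAP libraries of the 10 genes, with coefficients of variation of 18.6% and 10.8%. Runx3, which in mouse keeps proprioceptors from turning to the TrkB lineage, had 15.9, 10.9 and 14.4 normalised CPM in siCLAP libraries and 11.8, 11.5 and 10.7 in siNC libraries. The siCLAP-1 and siCLAP-3 libraries stood above all siNC libraries, while siCLAP-2 lay inside their range. The mean was 13.7 ± 2.55 in siCLAP and 11.3 ± 0.569 in siNC (SD, n = 3 each), a 1.22-fold difference that did not pass (log2 fold change 0.28 ± 0.12 SE, adjusted p = 0.276). Leaving out siCLAP-1 gave 0.15 and leaving out siCLAP-2 gave 0.42, neither passing (adjusted p = 0.686 and 0.114). Etv1, an ETS factor needed for proprioceptor terminals to reach their targets in mouse, had the same split, with 150, 123 and 149 normalised CPM in siCLAP and 134, 123 and 121 in siNC (0.16 ± 0.07 SE, adjusted p = 0.299). Here too siCLAP-2 was the low siCLAP library. The ratio of Runx3 to Runx1 in TPM was 0.302, 0.187 and 0.270 in siCLAP and 0.229, 0.205 and 0.207 in siNC.

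Of 8 genes listed with Runx3 and Etv1 as proprioceptor genes, 1 rose, 0 fell and 7 did not pass. Of all tested genes 0.0731% were called higher. The list had 6 positive estimates and a median log2 fold change of 0.20. Pvalb, the calcium buffer that marks proprioceptors, had 64.9, 62.0 and 56.8 normalised CPM in siCLAP libraries and 44.6, 45.9 and 44.0 in siNC libraries, with no overlap (log2 fold change 0.45 ± 0.06 SE, adjusted p = 0.0215). Its siCLAP-2 library lay between the other siCLAP libraries, above all siNC libraries. Whrn, a scaffold protein gene of proprioceptor endings, stood at 0.24 ± 0.07 SE (adjusted p = 0.106), and Spp1 and Calb2 at 0.33 ± 0.10 and 0.50 ± 0.17 SE (adjusted p = 0.148 and 0.183). Ntrk3, the proprioceptor neurotrophin receptor TrkC, was at −0.07 ± 0.09 SE (adjusted p = 0.741). The list count was 0 with limma on log2(TPM + a pseudocount), for each of 3 pseudocounts, and without siCLAP-1, siNC-3 or both siNC-3 and siCLAP-2. It was 2 with DESeq2, without siCLAP-2 or with the replicate number as a block, and 4 with no filter. Scaled to pan-neuronal genes it was 1, and the list's median was 0.118, against −0.0839 for all tested genes. Over all genes the count was 0 with those limma fits, 611 with DESeq2, 801 with pan-neuronal scaling and 835 with no filter.

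Touch-neuron genes were listed as companions of Shox2, and none of the 9 passed edgeR's test. Ntrk2, which encodes the TrkB receptor of the neurons where Shox2 acts, had 136, 133 and 135 normalised CPM in siCLAP and 157, 146 and 139.8 in siNC, every siCLAP library lying below every siNC library (log2 fold change −0.13 ± 0.05 SE, adjusted p = 0.206). In the list of 9 mechanoreceptor genes 0 were called in edgeR's test, with 4 positive and 5 negative estimates and a median of −0.07. An unadjusted p under 0.05 was reached by 4 of the 9, against 17.0% of all tested genes. DESeq2 called 2, Nefh higher and Ret lower, against 3.19% of all tested genes. Scaled to pan-neuronal genes, 3 of the 9 were called lower (Ntrk2, Piezo2 and Ret), 2 estimates were positive and 7 negative, and the median was −0.152. Nefh, a heavy neurofilament of large neurons, stood at 0.21 ± 0.07 SE, and Piezo2, the touch channel, at −0.18 ± 0.06 SE (adjusted p = 0.148 and 0.160). Of the 4 neurotrophin receptor genes 0 were called and 1, Ntrk2, had an unadjusted p under 0.05, and DESeq2 also called 0. Scaled to pan-neuronal genes, Ntrk2 was called lower, all 4 estimates were negative, and the median was −0.154, against −0.071 in edgeR's test with TMM scaling. That scaling moved the median of all 19141 tested genes from −0.002 to −0.0839, with 773 called lower and 28 higher. Ngfr, the shared low-affinity receptor, stood at −0.07 ± 0.08 SE (adjusted p = 0.647). The difference between Shox2 and Ntrk2 was not tested.

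**Figure D4:**
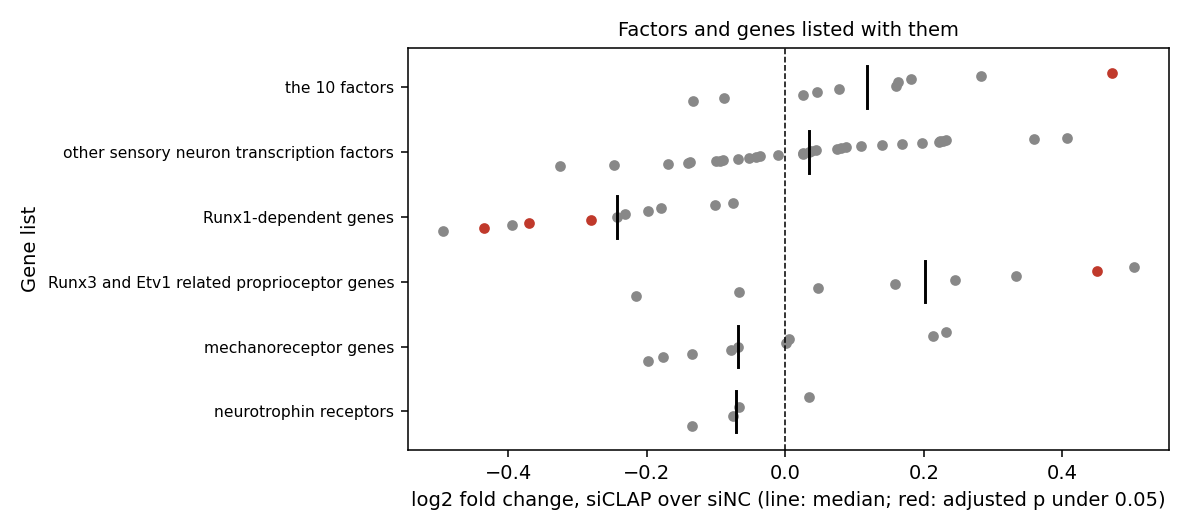
Log2 fold change, siCLAP over siNC, of each tested gene in the 10 factors and in 5 lists of genes related to them, with a line at the median and red for an adjusted p under 0.05. The 11 Runx1-dependent genes all lie below 0 with a median of −0.24, and the 8 proprioceptor genes have a median of 0.20.

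Read as a set, the 10 factors had 8 positive and 2 negative estimates and a median log2 fold change of 0.12, while 49.5% of all tested genes had a positive estimate. Groups did not overlap for 3 of the 10 (Shox2, Tlx3 and Isl1), where 21.5% of all tested genes had such groups. An unadjusted p under 0.05 was reached by 4 of the 10 (those 3 and Runx3), against 17.0% of all tested genes. The summed level of the 10 factors overlapped between groups, at 965, 967 and 976 TPM in siCLAP libraries and 923, 970.4 and 912 TPM in siNC libraries.

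Markers of neurons in general summed higher in the siCLAP libraries. The 15 pan-neuronal genes summed to 22500 to 23100 TPM in siCLAP and 21200 to 22000 TPM in siNC, with no overlap. In edgeR's test 0 of the 15 were called. Their median log2 fold change was 0.09, with 12 positive and 3 negative (Rbfox3, Elavl3 and Syt1). An unadjusted p under 0.05 was reached by 8 of the 15, against 17.0% of all tested genes. Scaled to these genes, 5 factors were positive and 5 negative, with a median of 0.04, and the signs of Pou4f1, Runx1 and Prrxl1 turned. Under that scaling 29.5% of all tested genes were positive. Per 1000 TPM of pan-neuronal genes, the 10 factors summed to 41.8, 43.0 and 43.0 TPM in siCLAP and 42.0, 45.2 and 42.9 TPM in siNC, which overlapped.

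A further 36 transcription factors of sensory neurons were listed, and 31 passed the TPM filter. In edgeR's test 0 of the 31 were called, with 7 at an unadjusted p under 0.05, against 17.0% of all tested genes. DESeq2 called 2, Cbfb and Sox11, against 3.19% of all tested genes. Estimates were positive for 18 and negative for 13, with a median of 0.03. Scaled to pan-neuronal genes, 11 were positive and 20 negative, the median was −0.047, and 1, Casz1, was called lower. Among all tested genes 29.5% were positive under that scaling, with a median of −0.0839 and 773 called lower. After Cbfb the smallest p-values were those of Esrrb, an orphan nuclear receptor gene (0.41 ± 0.11 SE, adjusted p = 0.099), Sox11, a growth-associated factor (0.36 ± 0.10 SE, adjusted p = 0.106), and Casz1, a zinc-finger factor (−0.14 ± 0.05 SE, adjusted p = 0.182). Tlx1, Eya1, Neurod1, Neurog1 and Neurog2 were below the filter, the last 3 being factors of early neurogenesis.

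Some of the 10 factors are also made by cells outside the ganglion or by blood cells. The 5 spinal motor neuron genes, listed because motor neurons make Isl1, summed to 1.497 to 2.51 TPM in siCLAP and 1.53 to 1.89 TPM in siNC. Slc18a3 was at 0 in all 6 libraries, Chat had 1 to 3 counts, Mnx1 0 to 7, Lhx3 3 to 9 and Slc5a7 61.5 to 119 counts. The 6 dorsal horn genes, listed for Tlx3 and Prrxl1, summed to 4.80 to 5.53 TPM in siCLAP and 4.71 to 5.77 TPM in siNC. Lbx1 was at 0 in all libraries and Slc6a5 had 0 to 4 counts, while Lmx1b had 17.5 to 64.0, Pax8 30.5 to 90.0, Pax2 32 to 100 and Gbx1 47.5 to 127.5 counts. The sums of both lists overlapped between groups.

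Leukocyte genes were listed because T cells can carry Runx3, and the 13 of them summed to 36.9 to 74.9 TPM in siCLAP and 34.8 to 59.9 TPM in siNC, siCLAP-2 being the highest. Of the lymphocyte genes among them, Cd8a reached at most 2 counts, Cd3g 3, Nkg7 6, Cd3e 7 and Cd79a 56. Satellite glia genes had 7 positive estimates of 9, and 1, the endothelin receptor gene Ednrb, rose (log2 fold change 0.45 ± 0.07 SE, adjusted p = 0.0317), with sums of 4430 to 4900 TPM in siCLAP and 4090 to 4490 TPM in siNC. Myelinating Schwann genes had 10 negative estimates of 10, with sums of 3430 to 3740 TPM in siCLAP and 3460 to 4580 TPM in siNC. Of these 1, the myelination factor gene Egr2, fell (−0.76 ± 0.13 SE, adjusted p = 0.0389). Among all tested genes 0.0731% were called higher and 0.293% in either direction, and 49.5% had a positive estimate. Without siCLAP-1, 0 of all tested genes were called, so the calls of Ednrb and Egr2 did not hold there. Leptomeningeal genes, 8 in number, summed lower in every siCLAP library, at 11.1 to 24.0 TPM in siCLAP against 29.9 to 137 TPM in siNC. The 7 of them above the TPM filter had negative estimates, and 0 were called. Ptgds made up most of the siNC sums, at 90.3, 19.3 and 91.7 TPM, against 13.5, 6.67 and 3.63 TPM in siCLAP. The part of these cell types in the values of the factors was not tested.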

How the data were processed

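Bulk RNA-seq of L4/5 dorsal root ganglia gave 6 libraries, 3 siCLAP and 3 siNC, grouped by sample title. Per the labels' protocols, total RNA went into a NEBNext Ultra RNA kit, which does not mark strand. The submitters' processing notes name FastQC 0.11.8, HISAT2 2.1.0, featureCounts 1.6.2 and mm10. The annotation and the handling of multiply matching reads are not given in these sources. Each deposited file gives per gene a TPM value and an expected count. Over all 48401 rows 64.4% to 68.3% of these counts were whole, a share that takes in rows at 0. Genes above 0 numbered 26004 to 27505 per library. Totals were 25982046 to 39239131 counts in siCLAP and 21386768 to 46317735 in siNC.

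Expected counts were rounded and tested with edgeR 4.0.16 (R 4.3.3, quasi-likelihood, TMM, no covariate) on genes with a mean of at least 1 TPM, with Benjamini-Hochberg adjustment over 19141 genes and a threshold of 0.05. Normalised CPM are TMM-scaled. Standard errors were derived from each log2 fold change and F value. Alternatives used DESeq2 1.42.0, limma 3.58.1, other scalings, filters and left-out libraries. The test was checked on simulated data. Libraries of a group differed by more than counting noise (chi-square per gene 4.36 to 10.0). Gene overlaps came from GENCODE M21. Members and lists were chosen with earlier results of these data known. The named genes are all members, the 4 list genes with the smallest p, and the 3 genes most like a called member. Rsrc1, Gm13425 and Gm26626 were added for their overlap, and marker genes for their cell type, with values seen. Some items are not reported here.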

Additional observations from a re-analysis of the deposited data

How the results depend on the processing

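The main counts were 56 genes and 1 factor (Shox2). The count of genes was 611 with DESeq2, 0 with limma on log2(TPM + 0.5), log2(TPM + 0.1) or log2(TPM + 1) (3028, 3017 and 3040 at an unadjusted p under 0.05), 801 with scaling to pan-neuronal counts, 835 with no filter, 135 and 118 with filters of 0.1 and 5 TPM, 133 with robust settings, 0 to 340 with 1 library left out, and 13 without both siNC-3 and siCLAP-2. It was 0 when siCLAP-1 was left out (1960 unadjusted), 4 for siNC-3, 157 for siNC-2 and 340 for siCLAP-3. The count of factors was 2 with DESeq2 and 0 with limma on log2(TPM + 0.5) and its other pseudocounts (3 unadjusted each) or without siNC-3 and siCLAP-2 (4 unadjusted), and 0 to 1 with 1 library left out. The cause was not tested. Signs turned for Pou4f1 (−0.0043), Runx1 (−0.0345) and Prrxl1 (−0.0563) under pan-neuronal scaling, and for Runx1 without siNC-3 and siCLAP-2 (−0.0216). With 1 library left out Runx1 ran from −0.0015 to 0.0924 and Prrxl1 from −0.0503 to 0.1007. The other 7 factors kept their sign in 20 of 20 alternatives. With the replicate number as a block, 203 genes and 1 factor, again Shox2, were called. Deviations of same-numbered libraries correlated at 0.144, 0.116 and −0.0496, and not every library correlated best with its own number, so the numbers were not taken as pairs. The recount of list calls was chosen after seeing the data. Runx3 had the fewest counts and the largest standard error, 0.123.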
